A study of Mus musculus with 4 samples.

Results

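The genes described here are the BATF family, Batf, Batf2 and Batf3, and the interferon regulatory factors Irf4 and Irf8, chosen by symbol. All 5 were found, each as 1 row among the 25509 genes of the expected-count table. They were followed in cultured mouse helper T cells that lack or carry Batf3. Splenic naive CD4+ cells, gated as CD25 negative, CD62L high and CD44 low, were kept for 72 h with anti-CD3, anti-CD28, TGF-beta, IL-4 and the TNF-family cytokine TL1A (spelled TLA1 in the treatment label), conditions that favour the interleukin 9 producing TH9 state. There were 2 Batf3-/- libraries and 2 WT libraries, all from cells given the same treatment. The labels give neither the strain nor the exons missing from the Batf3 allele, and they do not say whether replicates were separate mice or cultures. The p-values therefore measure only the spread between these samples, which may be technical.

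BATF proteins are small basic leucine zipper (bZIP) factors of the AP-1 superfamily. They have no transactivation domain of the FOS kind and bind DNA as dimers with a JUN protein. On composite DNA elements the BATF-JUN dimer recruits IRF4 or IRF8, and this partnership is a known route to interleukin 9 and interleukin 17 production in helper T cells. BATF3 is best known for its role with IRF8 in the development of type 1 conventional dendritic cells (cDC1), in which BATF and BATF2 can stand in for it.

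Total counts were 31098059 and 15624874 in the Batf3-/- libraries and 23754946 and 27285811 in the WT libraries. WT replicate 1 stood slightly apart, with correlations of log2 CPM (counts scaled to library size) of 0.971 to 0.976 with the other libraries, against 0.981 to 0.982 among the others. Its GC-rich transcripts were low. Over 3063 tested genes with a transcript GC of at least 55%, the median deviation from each gene's mean was 0.12 and 0.13 log2 units in the Batf3-/- libraries, -0.22 in WT replicate 1 and -0.01 in WT replicate 2. The cultures carried T cell RNA, with 7 markers (Cd3d, Cd3e, Cd3g, Cd4, Cd2, Lck and Cd28) summing to 2185 and 2177 CPM in Batf3-/- and to 2320 and 1990 CPM in WT. The cDC1 list, which matters here because dendritic cells express Batf3 and Irf8, summed to 7.77 and 7.498 CPM in Batf3-/- and to 9.81 and 8.16 CPM in WT, with Clec9a and Tlr3 at 0 in every library and Xcr1 at no more than 0.0729 CPM. Most of the cDC1 sum came from Zbtb46, at 4.91 to 7.24 CPM. The 5 B cell markers summed to 24.0 to 27.0 CPM with Ms4a1 at 0, and the 6 macrophage markers to 3.24 to 4.50 CPM with Lyz2 and C1qa at 0. The B cell sum came mainly from Cd79b (9.62 to 13.1 CPM) and Ebf1 (12.8 to 17.2 CPM). The macrophage sum came mainly from Cd68 (2.97 to 4.33 CPM). Both NK cell markers and all 3 basophil and mast cell markers were at 0, and the 2 CD8 markers summed to 7.30 to 9.08 CPM, nearly all from Cd8b1.

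Batf3 RNA was nearly absent from Batf3-/- cells. Batf3 (ENSMUSG00000026630.9, GRCm38 chromosome 1, 191097847 to 191108945, plus strand, protein coding) had 17 and 8 counts in the Batf3-/- libraries, against 1439 and 1661 counts in the WT libraries. Every library thus carried the Batf3 level that its label implies. In CPM scaled by the trimmed mean of M values (TMM), Batf3 averaged 0.526 ± 0.0125 in Batf3-/- and 61.1 ± 0.808 in WT cells (SD, n = 2 each). The residue was 0.861% of WT. The fall was 114-fold (log2 fold change -6.84, SE 0.297; adjusted p = 3.80e-11 in edgeR's quasi-likelihood test over 12135 genes). The same-numbered libraries gave log2 ratios of -6.80 and -6.82. Of the 4 members tested, Batf3 was the 1 called lower and 0 were called higher, where 0.0494% of all tested genes were called lower and 0.0824% higher. As the deleted gene, Batf3 checks the labels. The remaining reads could not be placed within the gene, so whether they come from exons the allele keeps was not tested.

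Batf and Batf3 were the paralogs in use, and their start regions are shown because these genes supplied nearly all of the family RNA. The windows run from 250 bases before to 50 bases after the RefSeq transcript start (GRCm38.p6), plus strand, at chr1:191098164-191098463 for Batf3 and chr12:85686470-85686769 for Batf. Capitals mark matches on either strand to the GC box GGGCGG, the TATA box TATAAA, the AP-1 pattern TGANTCA, the IRF pattern (GAAA, any 2 bases, GAAA) or the STAT pattern TTCNNNGAA.
Batf3: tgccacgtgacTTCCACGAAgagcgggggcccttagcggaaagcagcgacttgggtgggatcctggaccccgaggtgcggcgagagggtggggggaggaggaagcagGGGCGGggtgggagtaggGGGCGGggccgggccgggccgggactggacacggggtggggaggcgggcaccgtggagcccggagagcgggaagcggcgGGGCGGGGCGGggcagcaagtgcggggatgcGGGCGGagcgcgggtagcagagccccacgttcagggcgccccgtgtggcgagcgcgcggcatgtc
Batf: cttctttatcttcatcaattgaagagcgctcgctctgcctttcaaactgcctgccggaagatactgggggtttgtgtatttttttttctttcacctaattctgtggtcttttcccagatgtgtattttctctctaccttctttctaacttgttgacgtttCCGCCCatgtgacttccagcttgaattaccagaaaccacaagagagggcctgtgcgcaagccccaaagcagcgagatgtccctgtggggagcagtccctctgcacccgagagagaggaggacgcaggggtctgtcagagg
The Batf3 window had a GC content of 75.7% and 34 CpG dinucleotides, and the Batf window 49.7% and 9, beside a median of 52.7% over 32851 promoter windows. Batf3 held 5 GC boxes, with 1 pair overlapping, and 1 STAT match, and Batf held 1 GC box. The AP-1 and IRF patterns matched in neither window. A GC box occurs in 35.7% of all windows, the STAT pattern in 8.30%, the AP-1 pattern in 7.81%, the TATA box in 13.6% and the IRF pattern in 3.44%. Windows were found for 4 of the 5 members. Those of Irf4 and of the upstream Irf8 start each held 1 TATA box, 26 and 31 bases before the start.

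Levels of different genes were compared per length, in TPM, the usual length-scaled unit, computed from the counts and the longest protein-coding transcript of each gene with TMM scaling. Irf4 was the most abundant member in every library, followed by Batf, Irf8 and, in WT cells, Batf3. Batf2 was all but undetected. In WT cells Irf8 and Batf3 differed by less than the spread between the WT libraries (207 ± 52.8 and 155 ± 4.75 TPM, SD, n = 2), while Batf3 ranked 901st and 873rd of all genes by TPM. The place of Irf8 depends on which transcript is taken: with the median length of its protein-coding transcripts it stood above Batf, at 268 against 213 TPM in Batf3-/- and 216 against 201 TPM in WT.

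**Figure D1:**
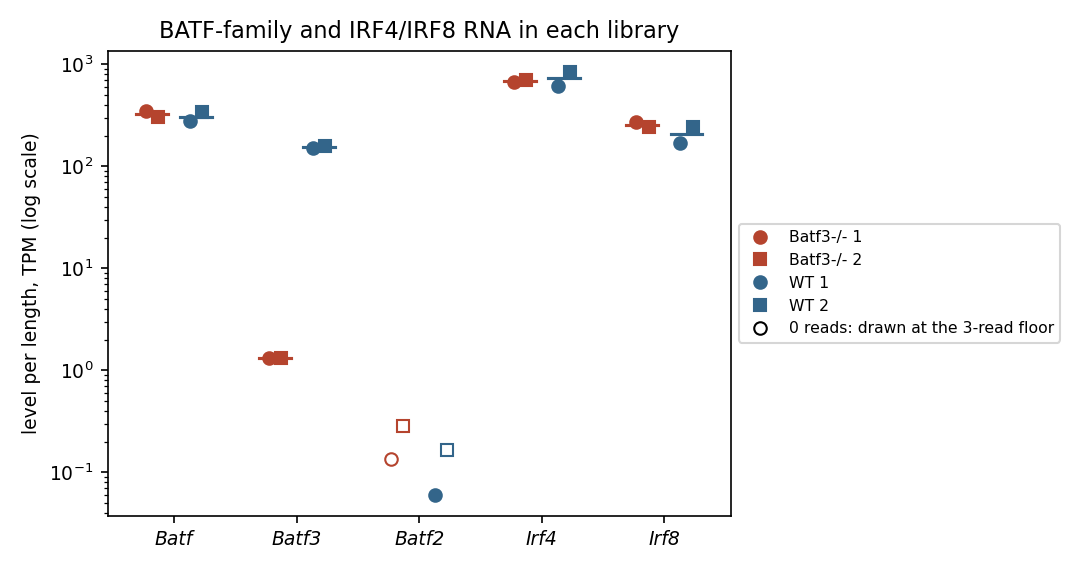
Level per length of the 5 genes in each library, in TPM on a log scale. Circles are replicate 1 and squares replicate 2, lines are group means, and open symbols are libraries with 0 reads drawn at the level of 3 reads; Batf3 lies near 1.33 TPM in both Batf3-/- libraries and above 150 TPM in both WT libraries, whereas Batf, Irf4 and Irf8 lie close together in both genotypes.

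Batf, the founding member of the family and a known regulator of interleukin 17 and interleukin 9 producing cells, did not pass the test. Batf (ENSMUSG00000034266.5, chromosome 12, 85686669 to 85709087, plus strand) had 5268 and 2208 counts in the Batf3-/- libraries and 3141 and 4214 counts in the WT libraries. These are 346 and 306 TPM in Batf3-/- cells, against 278 and 337 TPM in WT cells. The genotypes overlapped, with WT replicate 1 lowest and Batf3-/- replicate 1 highest. In edgeR the log2 fold change was 0.10 with an SE of 0.188 (adjusted p = 0.973), and its 95% interval ran from 0.815-fold to 1.41-fold. The log2 ratio was 0.30 in replicate 1 but -0.11 in replicate 2. In bulk RNA, fewer cells expressing a gene and less of its RNA per cell cannot be told apart. The sign depended on the processing: the log2 fold change was -0.09 after a correction for GC content, -0.003 without WT replicate 1 and -0.01 without Batf3-/- replicate 1. Batf3 transcripts are 62.8% and Batf transcripts 56.6% GC, against a median of 50.2% over tested genes. GC-rich genes deviated by a median of 0.12 and 0.13 in Batf3-/-, -0.22 in WT replicate 1 and -0.01 in WT replicate 2. This trend thus differed between the genotypes as well as between the WT libraries. Batf3 itself was not low in WT replicate 1 (61.7 CPM, against 60.5 CPM in WT replicate 2). Whether GC content shaped these values was not tested.

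Batf2, which in the mouse is best known from interferon-stimulated myeloid cells, contributed nothing measurable. Batf2 (ENSMUSG00000039699.13, chromosome 19, 6140983 to 6172476, plus strand) had 0 counts in both Batf3-/- libraries and in WT replicate 2 and 1 count in WT replicate 1. With 3 counts as the upper limit that a count of 0 allows, its level was at most 0.135 and 0.285 TPM in Batf3-/- replicates 1 and 2 and at most 0.165 TPM in WT replicate 2. Such limits cover counting error only. Batf2 lay below the filter on low counts. Without that filter it was tested and did not pass (adjusted p = 0.878, edgeR), and no fold is drawn from counts at or under the floor. An exon of Batf2 overlaps the opposite-strand gene Arl2 in the annotation. The strand setting of the counting is not given, so how reads in that overlap were assigned is not known.

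With Batf3 gone, the family RNA was almost wholly Batf. Batf made up 99.6% of the summed TPM of the 3 genes in each Batf3-/- library, against 64.7% and 68.0% in WT replicates 1 and 2. Batf3 made up 0.383% and 0.430% in Batf3-/- libraries, against 35.3% and 32.0% in WT libraries. The mean Batf share was 99.6 ± 0.0331% in Batf3-/- and 66.3 ± 2.38% in WT cells (SD, n = 2 each). The shares differed by 33.2 percentage points (exact permutation p = 0.333, the smallest possible), and this measure contains the deleted gene. In reads, without regard to length, Batf3 took 17 of 5285 family reads in Batf3-/- replicate 1 (0.322%, 95% Wilson interval 0.201% to 0.515%) and 8 of 2216 in Batf3-/- replicate 2 (0.361%, 0.183% to 0.711%). In WT it took 1439 of 4581 reads in replicate 1 (31.4%, 30.1% to 32.8%) and 1661 of 5875 in replicate 2 (28.3%, 27.1% to 29.4%). These intervals cover counting error only, and the 2 WT intervals do not overlap. The level of Batf was 260 and 231 times that of Batf3 in the Batf3-/- libraries, against 1.83 and 2.13 times in the WT libraries.

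The summed family level was lower in both Batf3-/- libraries than in either WT library. It was 348 and 307 TPM in Batf3-/- cells, against 430 and 496 TPM in WT cells. The Batf3-/- mean was 70.7% of the WT mean, and 80.8% within replicate 1 and 61.9% within replicate 2. An exact permutation test gave p = 0.333, two-sided, which is the smallest that 2 against 2 libraries allow. The sum contains the deleted gene, which gave a mean of 33.6% of it in WT cells. Batf3 alone lay 154 TPM lower, while the mean of the sum changed by -136 TPM. In the group means the deletion thus covers the whole fall.

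The question of compensation was whether Batf makes up for the missing Batf3 RNA. The Batf3-/- mean of Batf lay 18.3 TPM above the WT mean, while Batf3 lay 154 TPM below, so the difference in Batf was 11.9% of the Batf3 loss. Between the libraries numbered 1, Batf was 68.2 TPM higher in Batf3-/- (45.3% of the Batf3 loss between them). Between those numbered 2, Batf was 31.6 TPM lower in Batf3-/-. The labels state no pairing, so these are not matched differences. Replacing the loss in full would take a 1.5-fold level of Batf. The 95% interval of the Batf fold change ended at 1.41, or 81.4% of the loss, and at 41.3% of it after the GC correction. This bound is not firm. With the union of all exons as gene length, a 1.37-fold level would be enough, which is inside the interval, and with Batf3-/- replicate 2 left out the interval reached 149% of the loss.

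**Figure D2:**
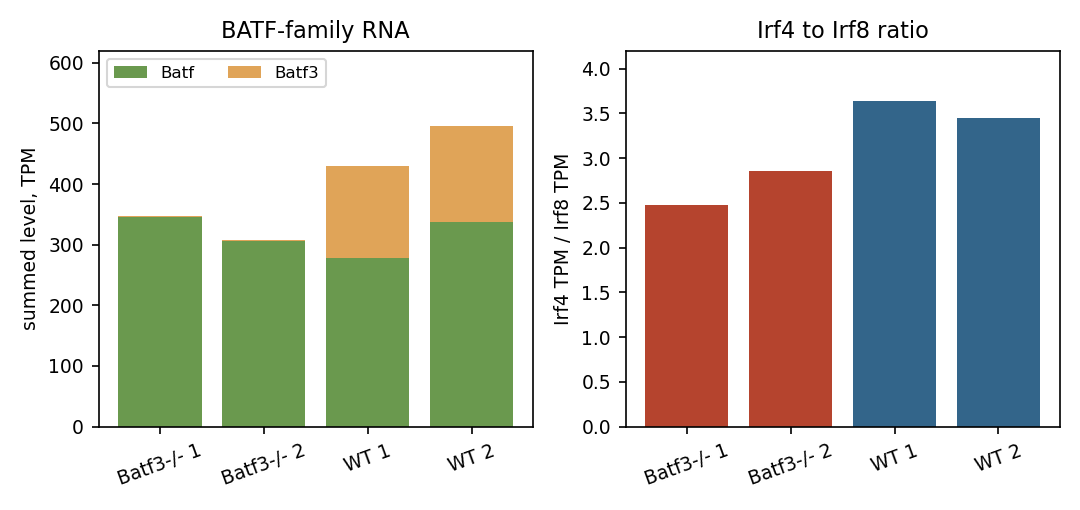
Left, summed TPM of Batf (green) and Batf3 (orange) in each library, stacked from 0; right, Irf4 TPM divided by Irf8 TPM in each library. The Batf3 part of the stack is missing from both Batf3-/- bars while the Batf part ranges from 278 to 346 TPM over the 4 libraries, and the Irf4 to Irf8 ratio is 2.48 and 2.86 in Batf3-/- against 3.64 and 3.45 in WT.

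Of the IRF partners, Irf4 is induced by T cell receptor signalling and is required for TH9 differentiation in mice. Irf4 (ENSMUSG00000021356.9, chromosome 13, 30749226 to 30766976, plus strand) had 51011 and 25029 counts in the Batf3-/- libraries and 34838 and 52559 counts in the WT libraries. These are 672 and 695 TPM in Batf3-/- cells, against 618 and 844 TPM in WT cells. Both Batf3-/- values lay between the WT values. In edgeR the log2 fold change was -0.08 with an SE of 0.205 (adjusted p = 0.976), and its 95% interval ran from 0.702-fold to 1.27-fold. On the log2 scale replicate 1 gave a ratio of 0.10 and replicate 2 one of -0.24. Leaving out WT replicate 1 put the log2 fold change at -0.26, and leaving out WT replicate 2 put it at 0.11. The WT libraries differed from each other by 0.36 log2 units, a larger gap than any difference between the genotypes.

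Irf8, the partner of BATF3 in cDC1 cells and also expressed in activated lymphocytes, gave the highest log2 fold change of the members but did not pass. Irf8 (ENSMUSG00000041515.9, chromosome 8, 120736358 to 120756694, plus strand) had 12292 and 5229 counts in the Batf3-/- libraries and 5723 and 9108 counts in the WT libraries. These are 387 and 338 CPM in Batf3-/- cells, against 245 and 332 CPM in WT cells. On this scale both Batf3-/- libraries lay above both WT libraries, as was so for 18.2% of tested genes, with 15.6% below and 33.8% separated in either direction. On the TPM scale they overlapped (271 and 243, against 170 and 245). In edgeR the log2 fold change was 0.33 with an SE of 0.202 (adjusted p = 0.958), and its 95% interval ran from 0.936-fold to 1.68-fold. The log2 ratio was 0.66 in replicate 1 and 0.03 in replicate 2. Leaving out WT replicate 1 gave 0.12, and leaving out WT replicate 2 gave 0.56 (adjusted p = 0.0544 in edgeR). It was 0.20 after the GC correction, with Irf8 transcripts at 55.1% GC and Irf4 transcripts at 47.6%.

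The balance of the 2 partners was compared within each library, where library scaling cancels. The level of Irf4 was 2.48 and 2.86 times that of Irf8 in Batf3-/- cells, against 3.64 and 3.45 times in WT cells. The log2 ratio of Irf8 to Irf4 was 0.41 higher in Batf3-/- cells (-1.41 ± 0.146 and -1.82 ± 0.0545, SD, n = 2 each; exact permutation p = 0.333, the smallest possible). In replicate 1 it was 0.55 higher, and in replicate 2 it was 0.27 higher. With fold changes corrected for GC content, an alternative added after seeing the data, the difference was 0.22.

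**Figure D3:**
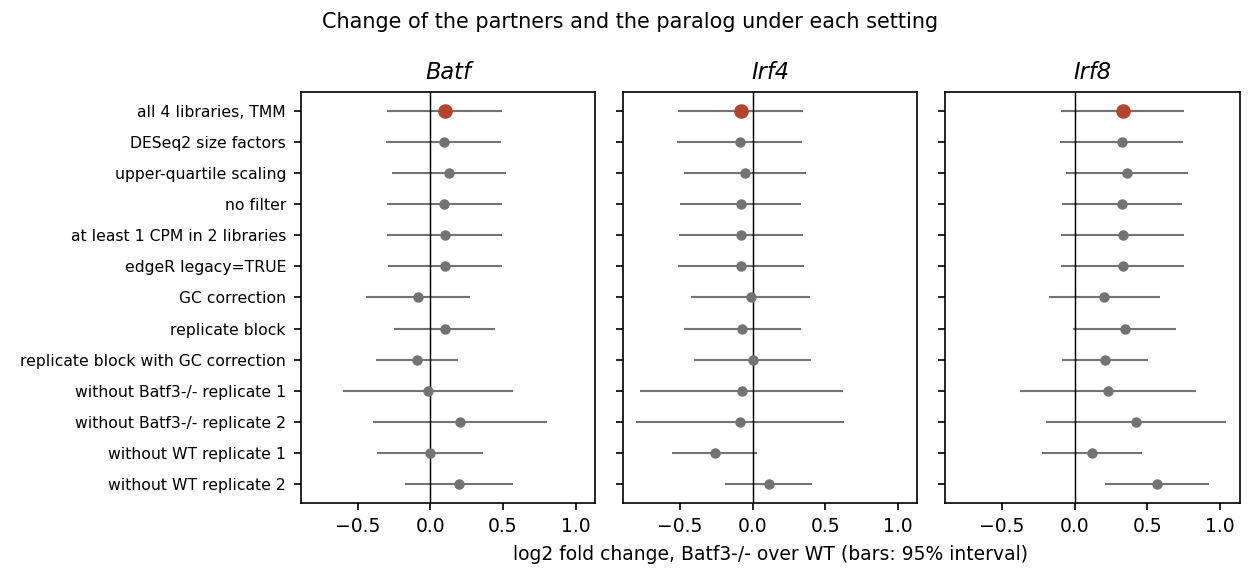
Log2 fold change of Batf, Irf4 and Irf8, Batf3-/- over WT, with 95% intervals from edgeR, for the fit to all 4 libraries (red, top) and for 12 other settings. The intervals for Batf and Irf4 include 0 in every setting shown, and the interval for Irf8 lies above 0 only without WT replicate 2.

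WT replicate 1 was the lowest of the 4 libraries for Batf, Irf4 and Irf8, as it was for 32.4% of tested genes. The gap between the Batf3-/- libraries was 0.22 log2 units for Batf, 0.01 for Irf4 and 0.19 for Irf8, beside a median of 0.19 over all tested genes. Between the WT libraries it was 0.19 for Batf, 0.36 for Irf4 and 0.44 for Irf8, beside a median of 0.29. Batf3 in WT cells had a gap of 0.03.

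Irf4 and Irf8 made up most of the RNA of the IRF genes analysed in both genotypes. Together they gave 83.7% and 82.7% of the summed TPM of 8 Irf genes in Batf3-/- cells, against 81.6% and 84.0% in WT cells. Irf4 alone gave 59.7% and 61.2% in Batf3-/- and 64.0% and 65.2% in WT. Irf8 gave 24.1% and 21.4% in Batf3-/- and 17.6% and 18.9% in WT. Each of the other 6 genes of this list stayed at or below 51.4 TPM in every library. None of these 6 passed in edgeR, DESeq2 or limma-voom, 0 had an unadjusted p under 0.05 in edgeR, and 3 were positive and 3 negative (median -0.0053, against -0.01 over all tested genes), or 2 positive and 4 negative after the GC correction. Those with the smallest p were Irf3, an interferon inducer, at 0.25 in log2 fold change (SE 0.195, adjusted p = 0.958) and 0.06 after the GC correction, and Irf1, an interferon-induced factor, at -0.18 (SE 0.201, adjusted p = 0.958).

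JUN proteins are the dimer partners of BATF factors, and FOS proteins compete for them. The 7 genes of this list were all tested, and 6 had positive log2 fold changes, as did 48.4% of all tested genes. The median over the list was 0.33, against -0.01 over all tested genes, of which 0.132% were called. None passed in edgeR, with 2 at an unadjusted p under 0.05, as were 583 of all 12135 tested genes. In DESeq2 1 gene, Junb, passed, where 29 of 12135 genes were called. After the GC correction 6 of the 7 were positive, with a median of 0.10 and 1 at an unadjusted p under 0.05 in edgeR. Junb had 941 and 845 TPM in Batf3-/- cells, against 343 and 611 TPM in WT cells (log2 fold change 0.93, SE 0.230, adjusted p = 0.252 in edgeR and 0.0439 in DESeq2). Jund had 373 and 321 TPM in Batf3-/- cells, against 151 and 268 TPM in WT cells (log2 fold change 0.75, SE 0.227, adjusted p = 0.534). For both genes the WT replicate 1 value was the lowest. Without WT replicate 2, when WT replicate 1 was the sole WT library, the log2 fold change was 1.35 for Junb and 1.17 for Jund. Without WT replicate 1 it was 0.59 for Junb and 0.42 for Jund. Their transcripts are 62.6% and 67.1% GC, and after the GC correction their log2 fold changes were 0.54 and 0.19. In TPM, the BATF genes summed to 0.259 and 0.257 of the JUN genes in Batf3-/- cells, against 0.836 and 0.545 in WT cells. BATF genes gave 19.4% and 18.9% of all BATF, JUN and FOS RNA in Batf3-/- cells, against 42.3% and 32.9% in WT cells. Both sums contain the deleted gene, and Batf alone gave 19.4% and 18.8% in Batf3-/- cells, against 27.4% and 22.4% in WT cells. The level of Batf was not itself lower, at a mean of 326 TPM in Batf3-/- and 308 TPM in WT cells. The JUN genes summed to 1343 and 1195 TPM in Batf3-/- cells, against 514 and 910 TPM in WT cells.

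The nearest bZIP relatives showed small differences. Atf3, a stress-induced factor, had 220 and 209 CPM in Batf3-/- cells, against 188 and 189 CPM in WT cells (log2 fold change 0.19, SE 0.185, adjusted p = 0.958). Jdp2, a repressor that dimerises with JUN, had 3.87 and 4.40 CPM in Batf3-/- and 3.43 and 3.24 CPM in WT cells (log2 fold change 0.30, SE 0.314, adjusted p = 0.958). After the GC correction the log2 fold change was 0.11 for Jdp2 and 0.14 for Atf3. Both Batf3-/- libraries lay above both WT libraries for each of the 2 genes, as for 18.2% of all tested genes, without a call in edgeR, DESeq2 or limma-voom and with 0 at an unadjusted p under 0.05.

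The other partners of IRF4 and IRF8 were either near 0 or did not pass. Spi1, encoding PU.1, had 0 CPM in 3 libraries and 0.0364 CPM in WT replicate 2, and Spib was at or below 0.214 CPM, so neither was tested. The log2 fold change of Ikzf1 (Ikaros) was -0.08 with an SE of 0.190 (adjusted p = 0.976) and that of Ikzf3 (Aiolos) -0.27 with an SE of 0.241 (adjusted p = 0.958). Leaving out 1 library moved Ikzf3 between -0.54, without Batf3-/- replicate 2, and -0.02, without Batf3-/- replicate 1. Among 9 genes that act upstream of Batf or Irf4 induction, 4 were positive and 5 negative (median -0.01), or 7 and 2 with upper-quartile scaling. Their signs differed with the library left out, with 0 positive and 9 negative without WT replicate 1 (median -0.20) and 7 positive and 2 negative without WT replicate 2 (median 0.20). None of these 9 or of the 2 Ikaros genes passed in edgeR, DESeq2 or limma-voom, with 0 at an unadjusted p under 0.05. Rel, an NF-kB subunit that drives Irf4, stood at -0.25 (SE 0.182, adjusted p = 0.958) with 109 and 110 CPM in Batf3-/- against 130 CPM in each WT library, and at -0.09 after the GC correction. Stat6, the IL-4 signal transducer, stood at 0.13 (SE 0.190, adjusted p = 0.961).

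Known targets of BATF and IRF4 in helper T cells showed no common direction that held under every setting. Of 18 genes, 15 were tested, with 4 positive and 11 negative (median -0.09, against -0.01 over all tested genes); after the GC correction 9 were positive and 6 negative. None passed in edgeR, DESeq2 or limma-voom. In edgeR 2 were at an unadjusted p under 0.05, as were 583 of all 12135 tested genes. Il22, encoding an epithelial barrier cytokine, had 5.44 and 3.10 CPM in Batf3-/- cells, against 0.600 and 1.46 CPM in WT cells (log2 fold change 2.07, SE 0.428, adjusted p = 0.0733). The log2 fold change of Il22 was 2.88 without WT replicate 2 and 2.37 without Batf3-/- replicate 2. It was 1.59 without WT replicate 1 and 1.56 without Batf3-/- replicate 1. Il9, the signature cytokine of these cultures, had 932 and 772 CPM in Batf3-/- cells, against 978 and 1559 CPM in WT cells (log2 fold change -0.57, SE 0.228, adjusted p = 0.898). The log2 ratio of Il9 was -0.07 in replicate 1 and -1.01 in replicate 2, and Il9 passed only without WT replicate 1 (-0.88, adjusted p = 4.61e-04).

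**Figure D4:**
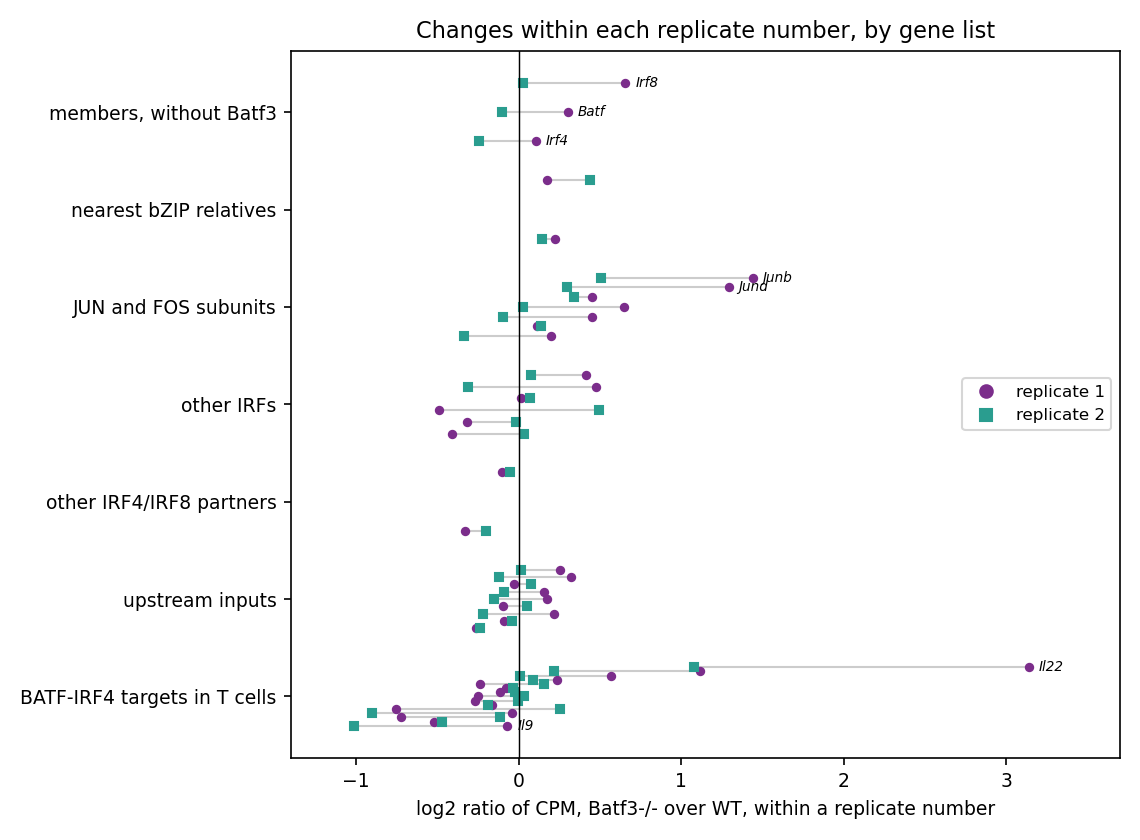
Log2 ratio of CPM, Batf3-/- over WT, within replicate 1 (circles) and replicate 2 (squares) for each tested gene of the lists, with a line joining the values of 1 gene. Irf8, Junb and Jund lie farther to the right in replicate 1 (0.66, 1.44 and 1.29) than in replicate 2 (0.03, 0.50 and 0.30), and Batf and Irf4 have opposite signs in the 2 replicate numbers.

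Genes whose level varied most like each member over the 4 libraries were found by the Euclidean distance between mean-centred log2 CPM profiles, over 9839 genes. No gene came close to Batf3: the nearest, the lymphocyte receptor gene Slamf7, lay at a distance of 3.34, and the second, the actin regulator gene Enah, at 4.98. Slamf7 had 12.2 and 16.03 CPM in Batf3-/- cells, against 177 and 139 CPM in WT cells. As Batf3 is the deleted gene, likeness to it marks a difference between the genotypes. Whether Slamf7 or Enah depends on Batf3 itself was not tested. Their positions in the genome were not compared with that of Batf3. Loss of Batf3 thus cannot be told apart from other differences between the genotypes. The distance was not scaled to a gene's own spread, so genes that hardly vary lie near a member that varies little. The log2 range over the 4 libraries was 6.84 for Batf3, the deleted gene, 0.30 for Batf, 0.36 for Irf4 and 0.66 for Irf8. The other members had many near neighbours, which need not vary together with them. Within a distance of 0.2 there were 1023 genes for Batf, led by Wdr77 and Zbtb8os, 1018 for Irf4, led by Mettl16 and Scmh1, and 402 for Irf8, led by Fosl1 and Man2c1.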

How the data were processed

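Poly-A RNA from 4 samples was sequenced as stranded libraries of 75-base single reads, per the labels. The deposited values are expected counts per gene, which can be fractional. The submitters' processing notes name STAR 2.5.0, RSEM 1.2.25 and the build GRCm38. Neither the annotation used for counting nor its strand setting is given in the sources used here. The 92 spike-in entries were 0 and left out. All counts of the 5 members were whole (within 0.005).

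Counts were rounded and tested with edgeR 4.0.16 in R 4.3.3 (filterByExpr defaults, TMM, robust glmQLFit with legacy=FALSE, two-sided, genotype only, Benjamini-Hochberg over 12135 genes at 0.05). SE is the absolute log2 fold change over the square root of F. DESeq2 1.42.0 and limma 3.58.1 (voom) were alternatives. TPM used the longest protein-coding transcript in GENCODE M21 (GRCm38; 25251 genes matched on identifier), with other lengths as alternatives. The GC correction used each library's trend on transcript GC. Log2 CPM had a prior count of 0.5. Floors were 3 counts. The fits were also run on simulated counts with a fixed spread and neither a GC trend nor an outlying library. That run checks the code and not how the fits behave on libraries like these. Promoters are from RefSeq.

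Same-numbered libraries share a code in their titles that the labels do not explain, so genotypes were compared unpaired. Members, lists, tests and alternatives were chosen with earlier results of these data known. The text names all 5 members, from each list the genes past the threshold or else the 2 with the smallest p, and the 2 genes nearest to each tested member. Trac was not analysed here. Some genes of the IRF and marker lists are not reported here.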

Additional observations from a re-analysis of the deposited data

How the results depend on the processing

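Batf3 passed under all 14 other settings (log2 fold change -7.31 to -6.80), and Batf, Irf4 and Irf8 passed under none of them, with adjusted p from 0.577 to 1.00, 0.717 to 1.00 and 0.0544 to 1.00. Leaving out 1 library at a time gave -0.014 to 0.20 for Batf, -0.26 to 0.11 for Irf4 and 0.12 to 0.56 for Irf8; the lone library of a genotype is then assumed to vary like the others. Batf was -0.087 with the GC correction and -0.091 with the replicate block and GC correction, and Irf4 was 0.00035 with both. The replicate number as a block gave 0.10 for Batf, -0.07 for Irf4 and 0.34 for Irf8. Deviations of same-numbered libraries correlated at 0.105 over genes, and the pairing is not stated. The 16 genes called in all became 29 in DESeq2, 112 with the block, 88 with block and GC correction, and 18 to 553 on leaving out 1 library. The Batf share difference was 27.0 to 34.9 points, the family total -0.68 to -0.36 and the Irf8 to Irf4 difference 0.21 to 0.51 (log2) over the alternatives run for each. The JUN and FOS list had 2 calls with the block and 0 to 3 on leaving out 1 library, and the target list 1 and 0 to 3. The calls with the block were Junb (0.97, edgeR adjusted p = 1.82e-04), Jund (0.80, 0.00262) and Il22 (2.04, 7.62e-05). With block and GC correction the adjusted p was 0.106 for Junb, 1.00 for Jund and 6.95e-06 for Il22 (2.22). Of 20 other named genes, the sign turned for Irf1 (-0.38 to 0.0028 on leaving out 1 library), Ikzf1 (-0.17 to 0.011; 0.0036 with GC correction and 0.0048 with block too), Stat6 (-0.0078 to 0.27), Wdr77 (-0.023 to 0.21), Zbtb8os (-0.027 to 0.19), Mettl16 (-0.25 to 0.12; 0.049 and 0.074) and Scmh1 (-0.23 to 0.13). Without a sign turn, Ikzf3 ran from -0.54 to -0.02 on leaving out 1 library, and the GC correction put Rel at -0.09 and Irf3 at 0.06. The causes were not tested. No fold was drawn for Batf2, at or under the floor in every library.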
